A study of Mus musculus with 12 samples.

Results

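In sorted male germ cells of PWD mice, 10 genes that were dim in C57BL/6J (B6) pachytene spermatocytes gave a bright signal: Stac, Tpm4, Scarb2, Hebp2, Erbb3, Slc28a3, Ppm1m, Bdh1, Msrb2 and Vgll2. They were chosen by the measured PWD minus B6 difference of the pachytene arrays used here, for a very large excess, so that this excess is described below and not tested. All probesets whose annotation names 1 of these genes and no other were kept, which gave 17 of the 45037 probesets on the array, for 10 of the 18193 genes with a probeset of their own. 5 of the genes had 1 probeset each and the other 5 (Scarb2, Hebp2, Erbb3, Slc28a3 and Bdh1) had several. All 10 lie on autosomes in GRCm38.p6: Hebp2, Erbb3 and Vgll2 on chromosome 10, Stac and Ppm1m on chromosome 9, and the others on chromosomes 2 (Msrb2), 5 (Scarb2), 8 (Tpm4), 13 (Slc28a3) and 16 (Bdh1).

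PWD/Ph is an inbred strain that represents the subspecies Mus musculus musculus, and C57BL/6J is an inbred laboratory strain mostly of Mus musculus domesticus origin. Both were used without any engineered allele or treatment. Testes of mice aged 8 to 10 weeks were dissociated and sorted by flow cytometry into prepachytene spermatocytes (leptotene, zygotene and early pachytene cells), pachytene spermatocytes (later pachytene and diplotene cells) and spermatids. The study reports that most, but not all, cells of each sorted population were of the desired type. There were 12 arrays, 2 for each strain in each population. The series describes duplicates from a pair of animals but does not say which array came from which animal, so that the p-values measure the spread between sorted samples.

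In the seminiferous epithelium, spermatocytes enter meiotic prophase, pair their homologous chromosomes and pass through a long pachytene stage, after which the divisions give haploid spermatids. Transcription is low in early prophase and broad in pachytene cells, where many genes start to be expressed that are silent in earlier germ cells. The PWD and B6 strains are the parents of a mouse model of hybrid male sterility, and the purebred cells described here are the fertile parental reference. The 10 genes belong to no common pathway. Stac encodes an adaptor with an SH3 domain that binds calcium channels, and Erbb3 a neuregulin receptor of the EGF receptor family. Tpm4 is a tropomyosin of actin filaments. Scarb2 is a lysosomal membrane protein and Slc28a3 a sodium-coupled nucleoside transporter. Bdh1 and Msrb2 are mitochondrial enzymes that act on ketone bodies and on oxidised methionine. Hebp2 binds heme, Ppm1m is a metal-dependent serine/threonine phosphatase, and Vgll2 is a cofactor of TEAD transcription factors known from skeletal muscle.

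Expression is given throughout as the deposited log2 value. A level of 5.31, below which lay the mean of 95% of 57 probesets for genes of other organs, was taken as the background level, and a value below it was not read as expression. Values of different probesets carry different probe affinities, so that only differences within a probeset are compared. Because cell populations were measured in bulk, fewer cells of a type and less RNA per cell cannot be told apart.

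In pachytene spermatocytes, the values that chose the members ran from 9.73 for Stac to 6.68 for Vgll2 in PWD minus B6, taking the probeset with the highest difference for each gene. Among all genes these values ranked from 2 to 10 for the first 9 genes and 17 for Vgll2. Pdxdc1, with a difference of 10.41, ranked first but was not among the members. The members with the smallest values were Msrb2 with 7.50 and Vgll2 with 6.68. Kcnab1 with 7.37 and Ano4 with 6.84 lay between them without being members, and Plcg2 with 6.46 came next below Vgll2, so that the choice was not a strict threshold on this difference. Of the 17 probesets, 14 passed the adjusted threshold as higher in PWD in this contrast and none as lower, against 8.64% and 4.19% of all probesets, and both PWD arrays lay above both B6 arrays for 16 of the 17, against 67.5%. The choice of members fixed these counts, and nothing is read from them.

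The promoters of the 3 genes with the largest pachytene excess among the members, Stac, Tpm4 and Scarb2, are shown together with the upstream Ppm1m promoter, the only member promoter with a match to the MYB motif. Each is a 300-base window around a transcription start from RefSeq on the GRCm38.p6 build, read 5′ to 3′ on the strand of the gene. This is the B6 reference, and no PWD sequence was used. Capitals mark GC boxes (GGGCGG on either strand) and, in Ppm1m, also the MYB motif (TAACNG on either strand). Of the 4 GC boxes of Ppm1m, the 3 nearest to the start overlap one another.
Stac, chr9:111690299-111690598, minus strand: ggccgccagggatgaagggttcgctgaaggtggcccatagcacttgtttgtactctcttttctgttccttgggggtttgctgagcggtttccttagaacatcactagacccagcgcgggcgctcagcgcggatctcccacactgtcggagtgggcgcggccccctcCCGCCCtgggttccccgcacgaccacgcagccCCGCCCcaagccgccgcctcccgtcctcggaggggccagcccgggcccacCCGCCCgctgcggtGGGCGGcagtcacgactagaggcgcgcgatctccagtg
Tpm4, chr8:72135038-72135337, plus strand: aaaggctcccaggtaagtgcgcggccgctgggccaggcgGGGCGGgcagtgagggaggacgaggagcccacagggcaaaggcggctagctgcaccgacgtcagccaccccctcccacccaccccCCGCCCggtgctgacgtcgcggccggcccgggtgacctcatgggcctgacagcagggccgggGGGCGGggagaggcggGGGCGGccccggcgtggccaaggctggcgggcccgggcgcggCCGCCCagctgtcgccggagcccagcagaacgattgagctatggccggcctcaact
Scarb2, chr5:92505608-92505907, minus strand: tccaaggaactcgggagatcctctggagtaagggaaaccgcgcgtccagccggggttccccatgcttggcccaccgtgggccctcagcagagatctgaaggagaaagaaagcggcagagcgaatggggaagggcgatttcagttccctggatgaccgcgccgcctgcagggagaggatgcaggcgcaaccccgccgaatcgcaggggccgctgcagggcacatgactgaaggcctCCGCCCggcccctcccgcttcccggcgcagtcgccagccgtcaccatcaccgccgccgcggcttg
Ppm1m, chr9:106199184-106199483, minus strand: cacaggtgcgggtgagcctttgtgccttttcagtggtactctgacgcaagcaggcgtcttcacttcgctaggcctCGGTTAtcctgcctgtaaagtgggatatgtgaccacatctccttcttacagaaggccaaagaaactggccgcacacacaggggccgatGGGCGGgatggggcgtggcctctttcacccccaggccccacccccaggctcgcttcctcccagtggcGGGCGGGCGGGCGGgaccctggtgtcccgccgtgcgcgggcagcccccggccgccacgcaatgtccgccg
A promoter window was found for 9 of the 10 genes. Ppm1m and Bdh1 had more than 1, which gave 11 windows. A GC box stood in 9 of the 11 windows, of 8 genes, and in 35.7% of all 32851 RefSeq promoter windows. The MYB motif was found for Ppm1m alone (23.3% of all windows), and CCAAT for Msrb2 and Slc28a3 (37.4%). TATAAA (13.6% of all windows), the CRE motif TGACGTCA (1.79%) and the RFX motif GTTGCC (12.5%) were in none of the 11 member windows. The median GC content was 65.3% in the member windows and 52.7% in all windows.

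The arrays within a group agreed closely, with a correlation over all probesets of 0.987 to 0.996. Of 20 markers of early meiosis, none had a mean below the background level in prepachytene cells, and 6 in B6 and 5 in PWD did in pachytene cells and again in spermatids, so that most of the list stayed above background in the later populations. Stra8, which starts meiosis, had means of 10.26 in B6 and 10.16 in PWD prepachytene cells and at most 2.27 in any other group.

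The PWD excess was also found in prepachytene cells, which include early pachytene cells, and in spermatids. The part of other cells within these sorted populations in the excess was not tested. The genes were chosen for a very large strain difference in pachytene cells, which can favour a difference in the other populations too. The shares of all probesets given below are therefore no like comparison. In prepachytene cells, 11 of the 17 probesets were higher in PWD at an adjusted p under 0.05 in limma and none was lower, which covered 9 of the 10 genes, all but Erbb3. Among these 11, both means were below the background level for Msrb2 and for 1426959_at of Bdh1. Of all probesets, 11.9% were higher and 6.72% lower in this contrast. The median PWD minus B6 difference was 2.04 over the 17 probesets and -0.01 over all probesets. Both PWD arrays lay above both B6 arrays for 13 of the 17, against 26.1% of all probesets. In spermatids, 13 of the 17 were higher in PWD and none was lower, covering all 10 genes, against 6.36% higher and 5.52% lower among all probesets. At an unadjusted p under 0.05 in limma the numbers were 12 in prepachytene cells, with 1446415_at of Hebp2 as the only lower probeset, and 13 in spermatids. The median difference was 5.60 against -0.03 over all probesets, and the groups did not overlap for 14 of the 17, against 17.8%. When arrays were centred on the probesets above the background level, the prepachytene counts became 11 higher and 2 lower, the lower ones being the dim probesets 1446415_at of Hebp2 and 1452482_at of Erbb3.

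**Figure D1:**
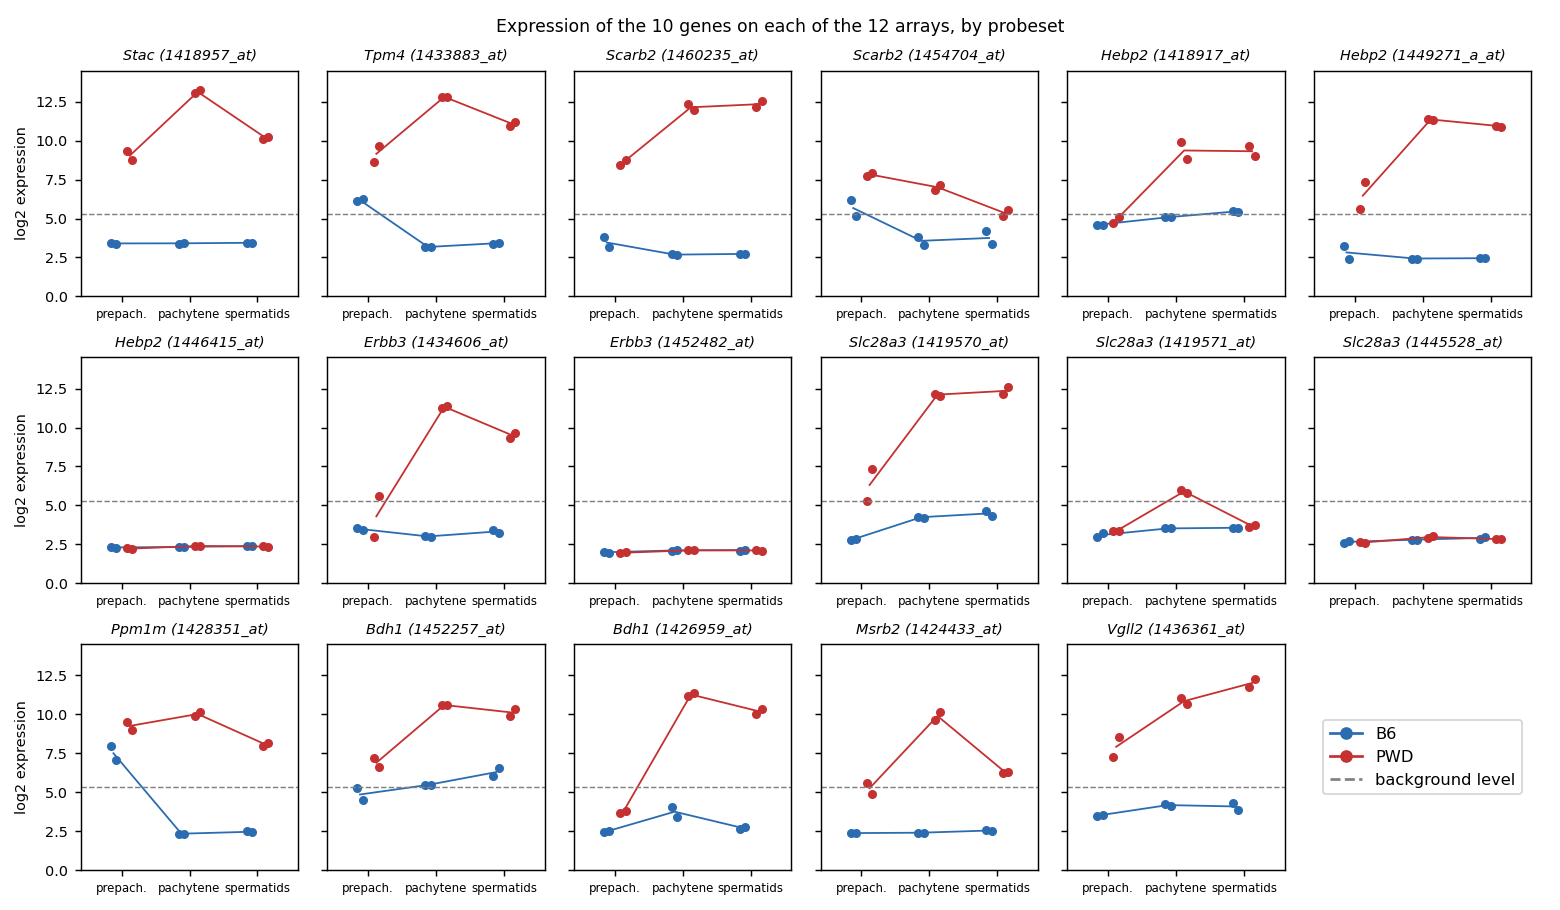
Log2 expression (vertical axis) of each of the 17 probesets on the 12 arrays, by population (horizontal axis), with B6 in blue and PWD in red; points are single arrays, lines join the group means and a dashed line stands at 5.31, the background level. For 14 probesets both PWD arrays of spermatids lie above both B6 arrays, and the dim probesets 1446415_at, 1452482_at and 1445528_at stay below the background level in every group.

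The size of the excess differed between the populations. The strain difference was larger in spermatids than in prepachytene cells for 11 of the 17 probesets and smaller for none (limma interaction, adjusted p under 0.05), against 6.32% larger and 8.9% smaller among all probesets. These 11 covered 9 genes, all but Msrb2. The choice of the genes in pachytene cells can bear on these counts as well. From prepachytene cells to spermatids, 14 of the 17 rose and 2 fell within PWD, against 29.5% and 24.6% of all probesets. Within B6, 6 rose and 4 fell, against 40.4% and 24.1%. The falls in B6 were those of Tpm4, Ppm1m and both Scarb2 probesets, and the rises were those of the 3 Slc28a3 probesets, 1452257_at of Bdh1 and the dim probesets of Hebp2 and Erbb3. Apart from that of 1452257_at, the rises stayed below the background level, as did the fall on 1460235_at of Scarb2. The B6 count of 10 changed probesets was 6 without replicate 1 of B6 prepachytene and 5 without replicate 2 of B6 spermatids, and its split became 9 higher and 3 lower with arrays centred on the probesets above the background level.

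As a description, 12 of the 17 probesets, of 9 genes, had a PWD mean over 1 log2 unit higher in pachytene than in prepachytene cells, a step found for 13.1% of all probesets; the PWD pachytene arrays took part in choosing the genes. In B6, 2 of the 17 had such a step, for Slc28a3 and Bdh1, against 13.4% of all probesets. The B6 pachytene arrays took part in the choice as well, which favours a low B6 value in these cells. Nothing is therefore read from the counts of this step in either strain. The B6 mean stayed below the background level for 14 of the 17 probesets in prepachytene cells, 16 in pachytene cells and 15 in spermatids. In PWD the corresponding counts were 8, 3 and 4. Of all 45037 probesets, 15090 had a mean over the 12 arrays above this level. The share of all probesets in each group is not given here. The choice of the genes favoured the pachytene counts of both strains, and nothing is read from them.

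Stac had a large excess in all 3 populations. On its probeset 1418957_at the PWD arrays read 9.33 and 8.74 in prepachytene cells, 13.04 and 13.23 in pachytene cells, and 10.11 and 10.25 in spermatids. The B6 arrays read between 3.35 and 3.45 in every population. The B6 signal thus stayed below the background level in all 3 populations, and no PWD array came near it. The strain difference was 5.64 ± 0.20 (SE; adjusted p = 1.9e-06) in prepachytene cells and 6.74 ± 0.20 (adjusted p = 4.8e-07) in spermatids. It was larger in spermatids by 1.10 ± 0.29 (adjusted p = 0.0371), a call that was lost with the replicate number as a block (adjusted p = 0.0591). The PWD level stood highest in pachytene cells, 2.95 above the level of spermatids.

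Erbb3 was the only gene with no call in prepachytene cells. On probeset 1434606_at the prepachytene arrays read 3.54 and 3.43 in B6 and 2.98 and 5.61 in PWD, so that the strains overlapped and 1 PWD array stood apart from the other. The pachytene arrays read 3.04 and 2.97 in B6 and 11.27 and 11.40 in PWD. The spermatid arrays read 3.44 and 3.20 in B6 and 9.35 and 9.65 in PWD. In B6 the receptor stayed below the background level throughout. The prepachytene difference of 0.81 did not pass the test (95% interval -0.77 to 2.39; adjusted p = 0.545). It was 2.12 without replicate 1 of PWD prepachytene and -0.5 without replicate 2 of it, so that its size and sign depend on which PWD array is kept. The difference of 6.18 ± 0.68 in spermatids passed the test (adjusted p = 6.9e-04), and it was larger than that of prepachytene cells by 5.37 ± 0.97 (adjusted p = 0.00829).

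Tpm4 and Ppm1m differed from the other genes in that the B6 signal of their brightest probeset was above the background level in prepachytene cells. For the tropomyosin Tpm4, probeset 1433883_at read 6.11 and 6.24 in B6 and 8.65 and 9.66 in PWD prepachytene cells. In pachytene cells it read 3.16 and 3.18 in B6 and 12.81 and 12.82 in PWD, and in spermatids 3.38 and 3.44 in B6 and 10.95 and 11.21 in PWD. From prepachytene cells to spermatids the signal thus moved apart in the strains: it fell by 2.76 in B6 (adjusted p = 6.6e-05) and rose by 1.93 in PWD (adjusted p = 6.6e-04). The strain difference grew from 2.98 ± 0.29 (adjusted p = 3.0e-04) to 7.67 ± 0.29 (adjusted p = 1.7e-06), a change of 4.69 ± 0.41 (adjusted p = 2.3e-04).

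For the phosphatase Ppm1m, probeset 1428351_at read 7.96 and 7.05 in B6 and 9.54 and 8.98 in PWD prepachytene cells. In pachytene cells it read 2.33 and 2.34 in B6 and 9.89 and 10.16 in PWD, and in spermatids 2.48 and 2.44 in B6 and 7.96 and 8.17 in PWD. Ppm1m was thus expressed in the prepachytene cells of both strains, and later above background in PWD alone. The signal fell by 5.04 in B6 from prepachytene cells to spermatids (adjusted p = 3.1e-06). In PWD it fell by 1.20 (adjusted p = 0.0128), a call that was lost without replicate 1 of PWD prepachytene (adjusted p = 0.0623), without replicate 1 of PWD spermatids (adjusted p = 0.067), after a second quantile normalization (change -0.56; adjusted p = 0.172), and with arrays centred on the probesets above the background level (adjusted p = 0.0876). The strain difference was 1.76 ± 0.31 in prepachytene cells (adjusted p = 0.0057), 5.60 ± 0.31 in spermatids (adjusted p = 1.5e-05), and larger in the latter by 3.84 ± 0.44 (adjusted p = 9.4e-04).

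The membrane proteins Scarb2 and Slc28a3 had PWD levels in spermatids close to those in pachytene cells on their brightest probesets. Probeset 1460235_at of Scarb2 read 3.78 and 3.14 in B6 and 8.41 and 8.77 in PWD prepachytene cells. It read 2.71 and 2.65 in B6 and 12.35 and 11.94 in PWD pachytene cells, and 2.71 and 2.74 in B6 and 12.16 and 12.53 in PWD spermatids. The B6 arrays stayed below the background level, and the PWD arrays of pachytene cells and spermatids overlapped. The difference was 5.13 ± 0.26 in prepachytene cells (adjusted p = 1.1e-05) and 9.62 ± 0.26 in spermatids (adjusted p = 3.0e-07), a growth of 4.49 ± 0.37 (adjusted p = 1.8e-04).

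Probeset 1419570_at of Slc28a3 read 2.79 and 2.85 in B6 and 5.28 and 7.34 in PWD prepachytene cells. It read 4.26 and 4.22 in B6 and 12.18 and 12.05 in PWD pachytene cells, and 4.63 and 4.34 in B6 and 12.13 and 12.58 in PWD spermatids. The PWD prepachytene arrays differed by more from each other than those of most members, with 1 just below and 1 above the background level. The strain difference was 3.49 ± 0.55 in prepachytene cells (adjusted p = 0.00346) and 7.87 ± 0.55 in spermatids (adjusted p = 5.7e-05), larger in spermatids by 4.38 ± 0.78 (adjusted p = 0.00792).

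The mitochondrial enzymes Bdh1 and Msrb2 parted after pachytene. Probeset 1426959_at of Bdh1, which interconverts the ketone bodies acetoacetate and hydroxybutyrate, read 2.47 and 2.49 in B6 and 3.64 and 3.78 in PWD prepachytene cells. It read 4.07 and 3.43 in B6 and 11.19 and 11.37 in PWD pachytene cells, and 2.65 and 2.76 in B6 and 10.04 and 10.36 in PWD spermatids. On this probeset both strains were below the background level in prepachytene cells. Its strain difference grew from 1.23 ± 0.23 in prepachytene cells (adjusted p = 0.00756) to 7.49 ± 0.23 in spermatids (adjusted p = 5.4e-07), which at 6.26 ± 0.32 was the largest change among the members (adjusted p = 1.5e-05).

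Probeset 1424433_at of Msrb2, a methionine sulfoxide reductase, read 2.36 and 2.39 in B6 and 5.62 and 4.89 in PWD prepachytene cells. It read 2.41 and 2.39 in B6 and 9.62 and 10.18 in PWD pachytene cells, and 2.56 and 2.52 in B6 and 6.23 and 6.31 in PWD spermatids. The PWD level of spermatids was thus 3.63 below that of pachytene cells, the steepest step down among the probesets. The strain difference was 2.88 ± 0.26 in prepachytene cells (adjusted p = 2.3e-04) and 3.73 ± 0.26 in spermatids (adjusted p = 6.0e-05). Both prepachytene means, 2.37 in B6 and 5.25 in PWD, were below the background level. Msrb2 was the only one of the 10 genes with no probeset whose difference passed the test of a change between these populations (0.85, 95% interval -0.02 to 1.71; adjusted p = 0.199). The change passed after a second quantile normalization (1.87; adjusted p = 0.00703) and without replicate 1 of PWD prepachytene (1.21; adjusted p = 0.0321).

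Hebp2 and Vgll2 completed the group. Probeset 1449271_a_at of the heme-binding protein Hebp2 read 3.21 and 2.43 in B6 and 5.60 and 7.33 in PWD prepachytene cells. It read 2.43 on both B6 arrays and 11.38 and 11.35 in PWD pachytene cells, and 2.45 on both B6 arrays and 10.97 and 10.91 in PWD spermatids. The strains did not overlap in any population, and in B6 the signal stayed near the floor of the array. The difference was 3.64 ± 0.49 in prepachytene cells (adjusted p = 0.00166) and 8.49 ± 0.49 in spermatids (adjusted p = 2.0e-05), larger in spermatids by 4.85 ± 0.70 (adjusted p = 0.00301).

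Vgll2 alone had its highest PWD level in spermatids without overlap with pachytene cells. Its probeset 1436361_at read 3.50 and 3.54 in B6 and 7.27 and 8.57 in PWD prepachytene cells. It read 4.23 and 4.12 in B6 and 11.04 and 10.67 in PWD pachytene cells, and 4.30 and 3.87 in B6 and 11.75 and 12.29 in PWD spermatids. B6 stayed below the background level in each population. The difference was 4.40 ± 0.40 in prepachytene cells (adjusted p = 2.2e-04) and 7.94 ± 0.40 in spermatids (adjusted p = 9.3e-06), larger in spermatids by 3.53 ± 0.57 (adjusted p = 0.00507).

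**Figure D2:**
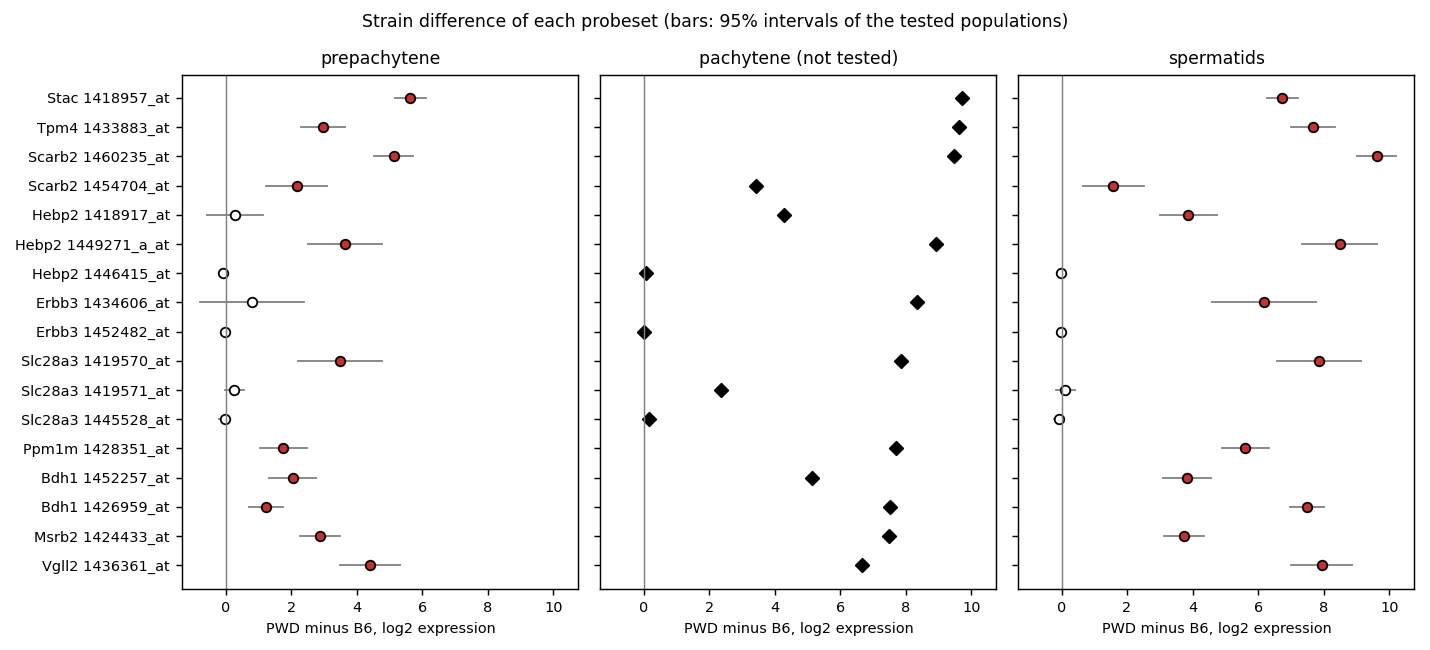
PWD minus B6 in log2 expression (horizontal axis) for each of the 17 probesets (rows) in prepachytene cells, pachytene cells and spermatids; red circles passed the limma test at an adjusted p under 0.05, white circles did not, bars are 95% intervals, and black diamonds in the pachytene panel are the values that chose the genes and carry no interval. The 11 red circles of prepachytene cells lie between 1.23 and 5.64 and the 13 of spermatids between 1.58 and 9.62.

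Markers of other cells moved with the prepachytene comparison. Of all genes, 16.6% were higher and 5.88% lower in PWD prepachytene cells, 12.1% and 5.05% in pachytene cells, and 9.56% and 7.54% in spermatids. Of 24 spermatid markers, 10 were higher in PWD and none lower in prepachytene cells, and the log2 of their summed signal was 16.36 and 16.41 in B6 and 17.14 and 17.45 in PWD. The defining markers Prm1 and Tnp2, which pack sperm chromatin, had means of 15.07 and 10.72 in B6 and 15.75 and 12.46 in PWD. Of 15 Sertoli cell markers, 5 were higher and 1 lower in PWD prepachytene cells, with sums of 14.91 and 14.61 in B6 and 15.41 and 15.15 in PWD. Their defining genes Sox9, Amh and Fshr were below the background level in all groups, while Clu and Vim, which other cells also express, had means of 13.22 and 7.89 in B6 and 14.30 and 10.43 in PWD prepachytene cells. In spermatids, 4 of the 24 spermatid markers were lower and none higher in PWD, with sums of 18.64 on both B6 arrays and 17.97 and 18.45 in PWD, and 3 of the 15 Sertoli markers were higher. The part of these marker differences in the differences of the 10 genes was not tested.

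The other marker lists are read against the same shares of all genes. Of 20 prepachytene markers, 1 was lower in PWD prepachytene cells, 7 were higher in pachytene cells and 3 in spermatids. Of 16 pachytene and diplotene markers, 5 were higher and 3 lower in PWD prepachytene cells, 4 were higher and 1 lower in pachytene cells, and 1 was higher and 1 lower in spermatids. Of 11 spermatogonial markers, 2 were higher and 1 lower in prepachytene cells and none passed in the other populations. Of 6 Leydig cell markers, 1 was lower in PWD prepachytene cells, none passed in pachytene cells and 1 was higher in spermatids. Of 15 markers of peritubular, endothelial and blood cells, 2, 1 and 2 were higher in PWD in the order of the stages and 1 was lower in pachytene cells. Of 39 genes of other organs, 5, 3 and 2 were higher in PWD and none was lower. Their summed signal in pachytene cells was 9.15 and 9.20 in B6 and 10.28 and 10.48 in PWD, and their part in the member values was not tested.

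The probesets of a gene often gave different sizes of the strain difference. In each of the 5 genes with several probesets, the brightest probeset on average was set against each other probeset, and their strain differences were compared, which made 7 pairs. The size of the strain difference differed within the pair for 4 of 7 pairs in prepachytene cells, against 29.4% of 16752 such pairs over all genes, and for 7 of 7 in spermatids, against 17.3%. In 3 of the 7 pairs (of Hebp2, Erbb3 and Slc28a3) the second probeset was below the background level in all groups. In spermatids 1419571_at of Slc28a3 was also below it, with means of 3.56 in B6 and 3.67 in PWD. The genes were chosen for a very large difference, which favours a smaller one on their other probesets. Nothing is therefore read from these counts against the shares of all pairs.

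Scarb2 had a bright probeset with a large excess and a dimmer one with a small excess. The second Scarb2 probeset, 1454704_at, read 6.19 and 5.15 in B6 and 7.74 and 7.93 in PWD prepachytene cells. It read 3.82 and 3.31 in B6 and 6.85 and 7.17 in PWD pachytene cells, and 4.17 and 3.33 in B6 and 5.15 and 5.52 in PWD spermatids. Its PWD level fell by 2.50 from prepachytene cells to spermatids (adjusted p = 0.00103), while that of 1460235_at rose by 3.75 (adjusted p = 7.7e-06). Its strain difference was 2.17 ± 0.40 in prepachytene cells (adjusted p = 0.00753) and 1.58 ± 0.40 in spermatids (adjusted p = 0.0415). The spermatid call was lost in 13 of the alternatives, among them the replicate block (adjusted p = 0.0515) and the loss of replicate 2 of B6 spermatids (adjusted p = 0.231). The excess on 1460235_at was larger by 2.96 ± 0.34 in prepachytene cells (adjusted p = 5.0e-04) and by 8.04 ± 0.34 in spermatids (adjusted p = 5.1e-06).

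For Hebp2, the annotation ties 1418917_at and 1449271_a_at to the same RefSeq transcript. Probeset 1418917_at read 4.61 on both B6 arrays and 4.69 and 5.12 in PWD prepachytene cells. It read 5.08 on both B6 arrays and 9.94 and 8.80 in PWD pachytene cells, and 5.47 and 5.44 in B6 and 9.65 and 8.99 in PWD spermatids. Its prepachytene difference of 0.29 did not pass the test (95% interval -0.57 to 1.15; adjusted p = 0.732), and its spermatid difference was 3.87 ± 0.37 (adjusted p = 3.3e-04), larger by 3.57 ± 0.53 (adjusted p = 0.00335). The excess on 1449271_a_at was larger than on 1418917_at by 3.35 ± 0.49 in prepachytene cells (adjusted p = 0.00166) and by 4.62 ± 0.49 in spermatids (adjusted p = 4.6e-04). The prepachytene excess of Hebp2 thus appeared on 1 of its 2 expressed probesets, and both had the excess in spermatids. The remaining Hebp2 probeset, 1446415_at, had group means between 2.22 and 2.39 and no strain difference that passed the test.

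For Bdh1, probeset 1452257_at read 5.24 and 4.47 in B6 and 7.18 and 6.61 in PWD prepachytene cells. It read 5.45 and 5.49 in B6 and 10.61 and 10.60 in PWD pachytene cells, and 6.05 and 6.53 in B6 and 9.89 and 10.35 in PWD spermatids. It differed from 1426959_at in its B6 signal, which was above the background level in pachytene cells (mean 5.47) and in spermatids (mean 6.29). From prepachytene cells to spermatids this B6 signal rose by 1.43 (adjusted p = 0.00518 in limma). Its strain difference was 2.04 ± 0.32 in prepachytene cells (adjusted p = 0.00311) and 3.83 ± 0.32 in spermatids (adjusted p = 1.4e-04), larger by 1.79 ± 0.45 (adjusted p = 0.0322, and 0.052 with the replicate block). The sizes on the 2 probesets did not differ at the threshold in prepachytene cells (0.81 ± 0.35; adjusted p = 0.13) and differed by 3.66 ± 0.35 in spermatids, where 1426959_at showed the larger excess (adjusted p = 2.6e-04).

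For Slc28a3, 1419570_at and 1419571_at are annotated with the same RefSeq transcript, and only the former showed the excess in all populations. Probeset 1419571_at read 2.96 and 3.21 in B6 and 3.34 and 3.35 in PWD prepachytene cells. It read 3.52 on both B6 arrays and 5.97 and 5.82 in PWD pachytene cells, and 3.56 on both B6 arrays and 3.62 and 3.72 in PWD spermatids. It was above the background level in PWD pachytene cells alone, with a difference of 2.37 there. Its differences of 0.26 in prepachytene cells (95% interval -0.03 to 0.55) and 0.11 in spermatids (95% interval -0.18 to 0.40) did not pass the test (adjusted p = 0.229 and 0.638). In spermatids the excess on 1419570_at was larger by 7.76 ± 0.54 (adjusted p = 5.3e-05), and in prepachytene cells by 3.22 ± 0.54 (adjusted p = 0.00317). Probeset 1445528_at of Slc28a3 had group means of 2.61 to 2.97, and 1452482_at of Erbb3 of 1.96 to 2.12, both below the background level in every group.

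**Figure D3:**
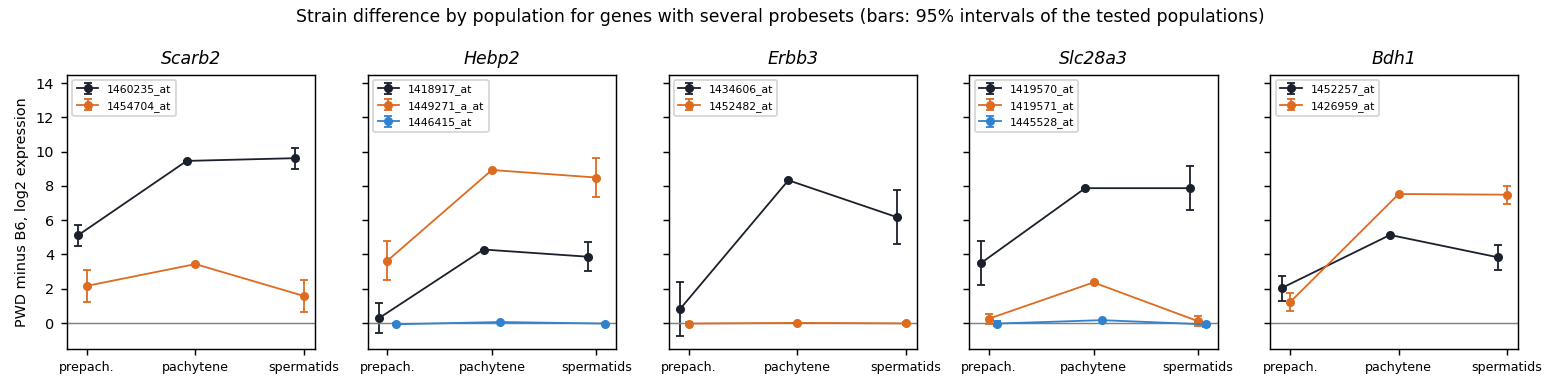
PWD minus B6 in log2 expression (vertical axis) by population (horizontal axis) for the 5 genes with several probesets, 1 line per probeset; bars are 95% intervals in the tested populations and the pachytene points carry none. The lines of Scarb2 stay apart, with a spermatid excess of 9.62 on 1460235_at and 1.58 on 1454704_at. The line of 1449271_a_at of Hebp2 and that of 1419570_at of Slc28a3 stay above the other lines of their gene. Those of Bdh1 cross between prepachytene cells and spermatids.

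Genes related to the members, by family or as known partners, were compared between the strains and read against the shares of all genes. Of 65 such genes, 58 had a probeset of their own. In pachytene cells 2 of the 58 were higher in PWD and 3 lower, against 12.1% and 5.05% of all genes. In prepachytene cells 14 were higher and 1 lower, against 16.6% and 5.88%. In spermatids 4 were higher and 8 lower, against 9.56% and 7.54%. The median differences of the 58 were 0.18, 0.07 and -0.06 from prepachytene cells to spermatids. The prepachytene count of 15 was 7 without replicate 1 of B6 prepachytene, 4 without replicate 2 of it and 8 without replicate 2 of PWD prepachytene. The pachytene count of 5 was 3 without either B6 prepachytene array or without replicate 2 of B6 pachytene. With arrays centred on the probesets above the background level the splits of higher and lower were 14 and 7 in prepachytene cells, 2 and 9 in pachytene cells, and 6 and 10 in spermatids.

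By family, the tropomyosin Tpm3 was higher in PWD, by 1.64 in prepachytene cells (means 10.04 and 11.68; adjusted p = 0.0013) and 1.93 in pachytene cells (8.27 and 10.20; adjusted p = 8.5e-04), while Tpm2 was lower by 0.95 in pachytene cells (6.78 and 5.84; adjusted p = 0.0424). Of the tropomodulins, which cap actin filaments, Tmod4 was higher by 2.05 in prepachytene cells with both means below the background level (adjusted p = 7.9e-04) and 0.99 in spermatids (adjusted p = 0.0322), and Tmod3 in spermatids had means of 7.82 for B6 and 5.56 for PWD (adjusted p = 0.0238). Vgll3, a sister of Vgll2, was higher by 2.70 in prepachytene cells (adjusted p = 0.014), 2.30 in pachytene cells (adjusted p = 0.0375) and 3.56 in spermatids (adjusted p = 0.00507). In spermatids its means were 6.01 in B6 and 9.58 in PWD. Vgll4, Tead2 and Yap1 were higher in prepachytene cells by 2.58, 1.81 and 1.01 (adjusted p = 0.00795, 2.6e-04 and 0.0235), both means of Tead2 being below the background level. Wwtr1, a partner of TEAD factors like Yap1, went the other way in spermatids, with means of 9.37 in B6 and 2.47 in PWD (adjusted p = 5.9e-04).

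Among the partners of Erbb3, only the neuregulin Nrg3 passed the test, and it was lower in PWD. Its means were 6.22 in B6 and 2.87 in PWD pachytene cells (adjusted p = 1.8e-04) and 5.26 and 3.05 in spermatids, both below the background level (adjusted p = 0.00131). The calcium channel Cacna1s, a partner of Stac proteins, was also lower, at 4.91 in B6 and 3.39 in PWD pachytene cells, both below the background level (adjusted p = 0.00585), and at 6.06 and 3.80 in spermatids (adjusted p = 6.4e-04). In the ketone body pathway of Bdh1, Oxct1 had means of 12.15 in B6 and 8.32 in PWD spermatids (adjusted p = 2.1e-05), and Bdh2 was higher in PWD prepachytene cells by 1.68, both means being below the background level (adjusted p = 0.0332). The methionine sulfoxide reductases other than Msrb2 split, with Msrb1 higher by 1.87 in PWD prepachytene cells (adjusted p = 0.0279), Msra at 9.05 in B6 and 8.19 in PWD prepachytene cells (adjusted p = 0.0354) and Msrb3 at 10.68 in B6 and 9.40 in PWD spermatids (adjusted p = 0.00994).

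Of the phosphatases related to Ppm1m, Ppm1d, Ppm1e and Ppm1f were higher in PWD prepachytene cells by 0.98, 1.17 and 1.14 (adjusted p = 0.0309, 0.00277 and 0.0436), with both means of Ppm1e and of Ppm1f below the background level. In spermatids Ppm1f was higher by 1.94 (adjusted p = 0.00555), and Ppm1h had means of 6.91 in B6 and 4.60 in PWD (adjusted p = 0.00269). The nucleoside transporter Slc29a3 was higher in PWD by 1.30 in prepachytene cells (adjusted p = 0.0203) and by 1.52 in spermatids (means 7.00 and 8.52; adjusted p = 0.0137), and Slc29a2 was higher by 0.87 in prepachytene cells with both means below the background level (adjusted p = 0.0342). For Scarb2, the lysosomal protein Lamp2 was higher by 1.37 in prepachytene cells (means 11.31 and 12.68; adjusted p = 0.0486), and the related receptor Cd36 stayed below the background level in spermatids, with means of 3.32 in B6 and 2.95 in PWD (adjusted p = 0.00707).

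The genes next to the members on the chromosome were examined in the same way. For each member the nearest gene on each side with a probeset of its own was taken, 20 genes in all. None differed between the strains by more than 2.45 in any population, in either direction. In prepachytene cells 4 were higher in PWD and 2 lower, in pachytene cells 2 were higher and 2 lower, and in spermatids none was higher and 2 were lower. Over all genes the shares higher and lower were 16.6% and 5.88%, 12.1% and 5.05%, and 9.56% and 7.54% in the same order. In pachytene cells the neighbours higher in PWD were Dlg1 beside Bdh1, with means of 7.14 in B6 and 8.71 in PWD pachytene cells (adjusted p = 0.00719), and Arfgef3 beside Hebp2, with 6.73 and 8.03 (adjusted p = 0.0151). The largest excess of a neighbour was that of Twf2 beside Ppm1m in prepachytene cells, 1.85 (adjusted p = 0.0296), against 1.76 for Ppm1m itself. Dlg1 was also higher in prepachytene cells, by 1.55 (adjusted p = 0.00517), as were Rps26 beside Erbb3 by 0.80 (adjusted p = 0.0213) and Armc3 beside Msrb2 by 1.45 (adjusted p = 0.00555).

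Wdr82, on the other side of Ppm1m, was lower in PWD in all 3 populations, with means of 10.89 and 9.13 in B6 and PWD prepachytene cells (adjusted p = 7.3e-05), 8.41 and 7.64 in pachytene cells (adjusted p = 0.007) and 7.59 and 6.71 in spermatids (adjusted p = 0.00307). Ntrk2 beside Slc28a3 had means of 7.07 in B6 and 4.62 in PWD pachytene cells (adjusted p = 0.00209), Nhsl1 beside Hebp2 5.79 and 4.27 in spermatids (adjusted p = 0.012), and Nup54 beside Scarb2 11.78 and 10.91 in prepachytene cells (adjusted p = 0.0436). The neighbours without a call were Dclk3 and Arpp21 of Stac, Cyp4f18 and Rab8a of Tpm4, Fam47e of Scarb2, Pa2g4 of Erbb3, Rmi1 of Slc28a3, Apod of Bdh1, Ptf1a of Msrb2, and Gprc6a and Ros1 of Vgll2. The prepachytene count of 6 was 3 without either B6 prepachytene array or without replicate 1 of PWD prepachytene. The pachytene count of 4 was 7 without either PWD prepachytene array and 1 without replicate 2 of B6 pachytene. With arrays centred on the probesets above the background level the splits were 4 higher and 6 lower in prepachytene cells, 2 and 3 in pachytene cells, and 1 and 3 in spermatids.

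**Figure D4:**
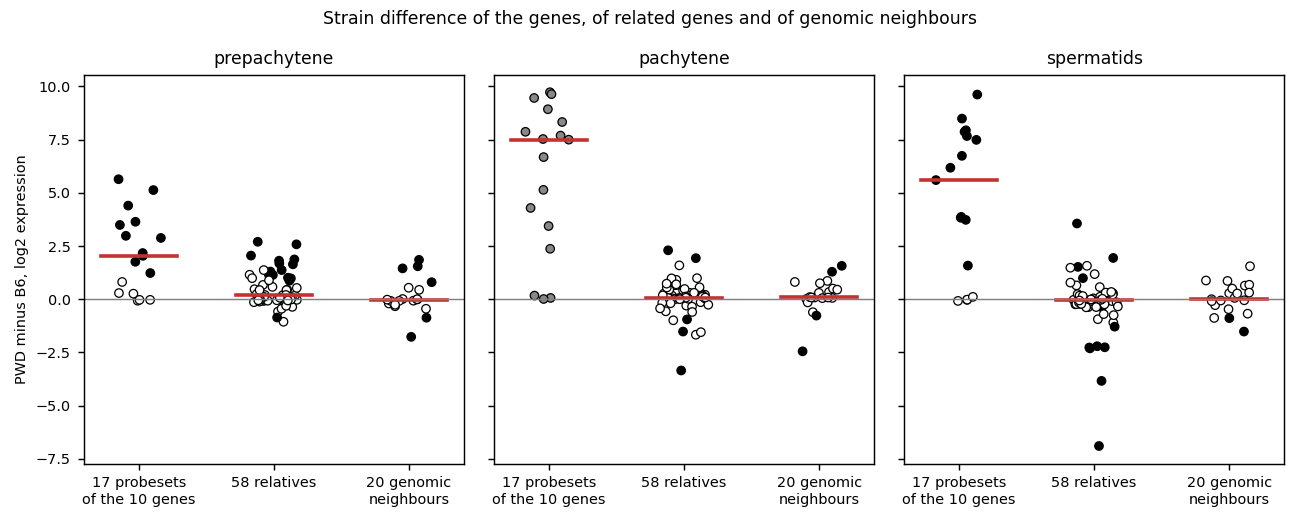
PWD minus B6 in log2 expression (vertical axis) for the 17 probesets of the 10 genes, for 58 related genes and for the 20 genomic neighbours, in the 3 populations; black points passed the limma test, white points did not, grey points in pachytene cells were not tested, and red bars are medians. The medians of the related genes lie at 0.18, 0.07 and -0.06 and those of the 17 probesets at 2.04, 7.50 and 5.60.

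The profiles of the 10 genes were set against their mean over the 12 arrays. The Pearson correlation of each gene's brightest probeset with the mean of the standardised profiles of all 10 ran from 0.771 for Ppm1m to 0.984 for Scarb2, as a description over arrays that share strain and population. The choice of the genes on 4 of these arrays, and the share of each gene in the mean, enter these values, and nothing is read from them. Among 13687 other probesets above the background level, those with the most similar profiles were of Enho (0.986), Tti2 (0.984), Dync1i1 (0.981), Proser1 (0.979) and Rdm1 (0.979), and 21 genes had a correlation above 0.95. Enho and Rdm1 had B6 means below the background level in all populations, and Tti2, Dync1i1 and Proser1 had B6 means of 5.74 to 7.35. In PWD pachytene cells these 5 genes had means of 8.26, 11.22, 12.14, 11.53 and 11.00 in the order given.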

How the data were processed

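Labelled RNA (15 to 40 ng input, amplified in a 2-cycle protocol per the labels) was hybridised to Affymetrix mouse expression arrays. The authors deposited log2 values, given as GCRMA in the submitters' processing notes (version not given in the sources used here). RMA and another array type are named in the study's methods, so that the method behind these values and their floor is not settled. GCRMA corrects background by probe sequence and includes a quantile normalization over arrays. The deposited values did not have equal quantiles: a second quantile normalization moved the probesets higher in PWD pachytene cells from 3890 to 2206. The probes were designed on a sequence close to B6, and a PWD mismatch can lower a PWD value.

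Apart from 64 control probesets, the deposited log2 values of 45037 probesets were fitted in limma 3.58.1 under R 4.3.3 with 6 group means, a variance prior following the mean, and Benjamini-Hochberg adjustment over all probesets within a comparison at a threshold of 0.05. Pairs of probesets were fitted in the same way on their difference. Probesets were named by the platform annotation (34945 with 1 gene, 932 with several, 9160 unnamed; 204 of the 34945 were not in RefSeq of GRCm38.p6). A related gene, neighbour or marker is given by its brightest probeset, averaged over the 12 arrays. The marker lists were of prepachytene, pachytene and diplotene, spermatid, spermatogonial, Sertoli, Leydig, peritubular, endothelial and blood cells, and other organs. Genes named were the members, the related genes that passed the test, both neighbours of each member and the 5 genes most alike in profile. Members and lists were chosen with earlier results of these data known. The number of arrays limits the precision. The fit was tested on simulated data. Plots were drawn in matplotlib 3.10.9 and tables made in pandas 2.3.3 and numpy 2.4.6 under Python 3.11.15. Alternatives were a second quantile normalization, centring, a filter at the background level, other variance priors and array weights. Others were the replicate number as a block, fewer arrays, a stricter threshold and leaving out each array. A further one took strain with replicate number as a random block, since the animal of an array is not known.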

Additional observations from a re-analysis of the deposited data

Results flagged for a closer look

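The difference between PWD and B6 was compared between spermatids and prepachytene cells within the limma fit, and the following probesets had a difference that changed between these populations at an adjusted p under 0.05. The strain difference in spermatids exceeded that in prepachytene cells by 6.26 on 1426959_at of Bdh1, 5.37 on 1434606_at of Erbb3, 4.85 on 1449271_a_at of Hebp2, 4.69 on 1433883_at of Tpm4, 4.49 on 1460235_at of Scarb2 and 4.38 on 1419570_at of Slc28a3. It was larger by 3.84 for Ppm1m, 3.57 on 1418917_at of Hebp2 and 3.53 for Vgll2. The values nearest to the threshold were 1.79 on 1452257_at of Bdh1 and 1.10 for Stac.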

How the results depend on the processing

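No call reversed under any alternative, and of the values of single probesets 1741 kept their side of the threshold, 84 lost the call and 20 gained it. The probesets called among the 17 numbered 9 to 13 in prepachytene cells, 12 or 13 in spermatids, 12 to 17 from prepachytene cells to spermatids in PWD, and 9 to 12 for a strain difference that changed between these populations. The call of Stac for that change was lost in 11 alternatives and that of 1452257_at of Bdh1 in 10. In B6, the 10 probesets called between prepachytene cells and spermatids became 5 at an adjusted p under 0.01 and 5 to 11 with an array left out. Alternatives for pairs of probesets, related genes and neighbours were chosen after seeing the data. At an adjusted p under 0.01, the related genes called numbered 5 in prepachytene and 3 in pachytene cells, and the neighbours 3 in prepachytene cells and 1 in spermatids. With array weights the related genes numbered 6 in prepachytene and 12 in pachytene cells, with 7 higher and 10 lower in spermatids. The neighbours then numbered 3, 8 and 4 in the order of the stages. With centring on the probesets above the background level, 11 related genes were called in pachytene cells, and 10 neighbours in prepachytene cells and 4 in spermatids. With only probesets above the background level, fewer probesets were tested: 9 related genes were called in prepachytene cells, 4 neighbours in spermatids, and 2 and 3 pairs in prepachytene cells and spermatids. A second quantile normalization gave 5 neighbours in spermatids. With an array left out, the related genes numbered 4 to 19 in prepachytene, 3 to 7 in pachytene cells and 10 to 15 in spermatids, the neighbours 3 to 6, 1 to 7 and 2 or 3, and the pairs 4 or 5 and 7. The causes were not tested.

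Centring moved the median of all probesets to -0.27, -0.25 and -0.12 for PWD minus B6 in the order of the stages, and to 0.67 in PWD and 0.51 in B6 between prepachytene cells and spermatids. The member medians relative to it stayed positive in each strain comparison. Arrays with the same replicate number did not deviate together (correlations of -0.274 to 0.1 over 15 pairs of groups, 1 above 0.1), so the numbers were not taken as pairs. With the replicate block the calls numbered 11 in prepachytene cells, 12 in spermatids, 16 within PWD, 9 within B6 and 9 for the change between populations. A value below 5.31 was not read as expression, so that the size of a strain difference over such a B6 value is uncertain.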
